A study of Mus musculus with 15 samples.

Results

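A set of 10 genes of skeletal muscle excitation-contraction coupling were followed across 15 arrays of mouse femoral RNA: Cacna1s, Cacng1, Ryr1, Trdn, Casq1, Casq2, Jph1, Jph2, Sln and Pln. They were chosen by name, as the probes whose accession leads to one of these symbols. All 10 genes were found, with 12 probes of the 55681 on the array and 1 spot per probe. Cacna1s and Trdn have 2 probes each, and every gene is described by its brightest probe (the one with the highest mean log2 Cy5 signal) unless the dimmer one is named. The array carries 28026 probes with a gene symbol, for 21154 genes.

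The RNA came from male C57BL/6J mice, 9 weeks of age per the labels, on Ground (G) or in spaceflight (FLT), either unoperated (Sham) or with segmental bone defect surgery of the femur (Surgery, SAL in the labels). Per the study's methods the defect was filled with a polymer and tricalcium phosphate graft, wrapped in a collagen sponge soaked in saline. Surgery versus Sham therefore includes the graft and sponge. The study's methods put the mice about a month older at tissue collection. With 1 mouse per array, there were 4 arrays each of G-Sham, FLT-Sham and G-Surgery, and 3 of FLT-Surgery. Flight mice spent roughly a month on the International Space Station, and ground mice were kept in matching hardware on Earth. The tissue was the midshaft callus region after surgery and the matching part of the femur in Sham mice, although the labels call every sample callus. It was taken whole, and the study describes the RNA as of sub-optimal quality after a freeze and thaw. On each array the sample carried Cy5 and a common reference RNA of 11 mouse cell lines carried Cy3. A log2 ratio below is therefore the level of a probe in the sample over that in the reference, and a value of 0 is also what the scanner software writes when neither channel stands out.

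Excitation-contraction coupling turns the electrical signal of a muscle fibre into a calcium signal. In skeletal muscle the voltage sensor in the transverse tubule (Cacna1s, with its gamma subunit Cacng1) opens the ryanodine receptor (Ryr1) of the sarcoplasmic reticulum, which the junctophilins hold close by. Triadin (Trdn) and the calsequestrins (Casq1 in skeletal and Casq2 mainly in cardiac and slow muscle) keep calcium beside the channel, and sarcolipin (Sln) and phospholamban (Pln) are small inhibitors of the pump that takes it back. Bone itself does not use this machinery, so its level in a femoral sample also depends on how much muscle the sample holds. In such bulk RNA, fewer cells of a type and less RNA per cell cannot be told apart.

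RefSeq promoters of assembly GRCm38.p6 were on hand for 6 of the 10 genes, as 7 entries of 300 bases (250 before and 50 after the start), namely for Ryr1, Casq1, Casq2, Pln, Cacna1s and Jph2. Sln, Cacng1, Jph1 and Trdn have no entry in the table. Muscle genes are often bound by myogenic factors at E-boxes of the form CAGCTG and by MEF2 at an A/T-rich site, and the entries were searched on both strands for CAGCTG, for the wider CANNTG that includes it, and for the MEF2 site. CAGCTG was found in 4 of the 6 genes (Casq1, Pln, Cacna1s and Jph2), against 16.3% of all 32851 promoters of this length. The MEF2 site was found in Casq2 alone of the 6, against 3.19% of all promoters. CANNTG is common, at 72.3% of all promoters, and was present in 5 of the 6 genes, Ryr1 being the exception. A match says only that the letters are present. The 250 bases before the start, 5′ to 3′ on the gene's strand, are shown for the voltage sensor and both calsequestrins, whose levels are described next, with the CAGCTG or MEF2 match in capitals.
Cacna1s, chr1:136052561-136052810, plus strand: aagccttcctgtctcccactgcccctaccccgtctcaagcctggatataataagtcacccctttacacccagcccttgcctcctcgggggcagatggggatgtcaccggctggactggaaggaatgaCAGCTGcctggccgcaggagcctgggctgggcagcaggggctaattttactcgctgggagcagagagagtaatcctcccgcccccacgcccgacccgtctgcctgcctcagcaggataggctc
Casq1, chr1:172219896-172220145, minus strand: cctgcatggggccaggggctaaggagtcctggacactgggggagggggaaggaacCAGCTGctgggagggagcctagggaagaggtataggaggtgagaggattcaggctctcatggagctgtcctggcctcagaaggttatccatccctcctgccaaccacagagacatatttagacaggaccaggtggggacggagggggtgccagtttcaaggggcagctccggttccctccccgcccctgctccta
Casq2, chr3:102086165-102086414, plus strand: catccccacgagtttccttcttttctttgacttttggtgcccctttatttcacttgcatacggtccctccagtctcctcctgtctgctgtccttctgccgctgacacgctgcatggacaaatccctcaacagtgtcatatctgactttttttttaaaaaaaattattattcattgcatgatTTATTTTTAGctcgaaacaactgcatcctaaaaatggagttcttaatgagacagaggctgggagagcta
Relative to the start, the CAGCTG begins at position -123 in Cacna1s and -195 in Casq1, and the MEF2 match of Casq2 begins at -69. In Pln the CAGCTG lies after the start.

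Across the arrays, Cy5 was well above background for 22.47% to 38.59% of all probes and Cy3 for 46.46% to 63.34%. Skeletal muscle RNA was present throughout. Of 16 fast skeletal muscle genes (such as Acta1, Ckm and Tnni2), 12 were above background on all 15 arrays. Their mean log2 ratio ran from 5.80 to 8.44 in G-Sham (median 7.93), from 6.42 to 8.60 in FLT-Sham (median 8.43), from 5.47 to 7.63 in G-Surgery (median 7.18) and from 3.86 to 6.81 in FLT-Surgery (median 3.99). FLT-Surgery replicates 3 and 5 (3.86 and 3.99) stood apart as the lowest of all arrays, and G-Sham 1, FLT-Sham 8 and G-Surgery 1 were the lowest of their groups. Of 9 osteoblast and osteocyte genes, 4 were above background on no array, and between 2 and 5 were above it on any one. The arrays lay on 3 slides, with G-Sham 4 alone on the third, and differences within the other two slides are given where they matter.

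**Figure D1:**
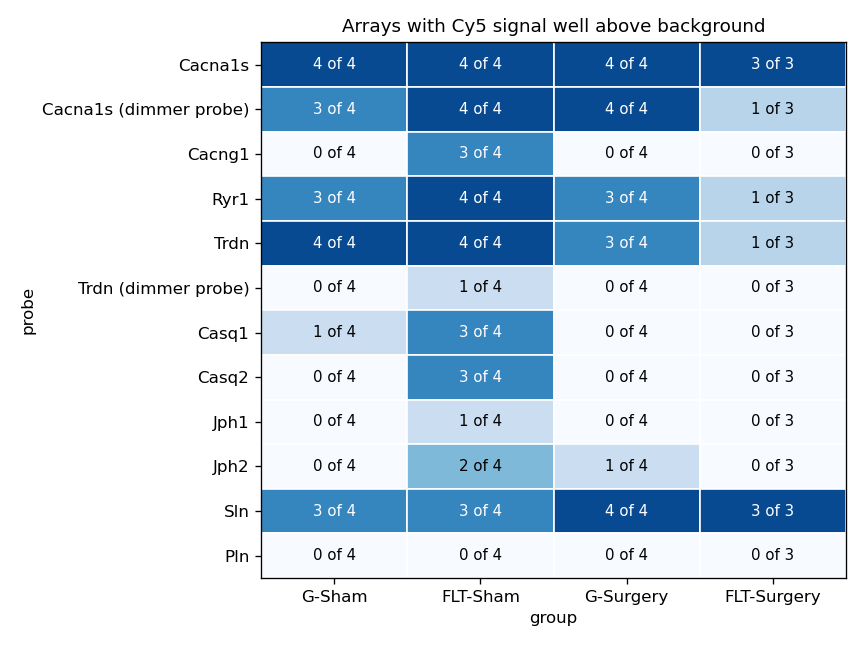
Number of arrays in each group (columns) on which a probe's Cy5 signal was well above background, for the 12 probes (rows), darker blue for a larger share. Cacna1s was above background on all 15 arrays and Pln on none, and Casq2 and Cacng1 were so on 3 FLT-Sham arrays only.

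How many of the genes could be seen differed by group. FLT-Sham arrays had 4 to 11 of the 12 probes above background in Cy5, G-Sham arrays 2 to 6, G-Surgery arrays 4 to 5 and FLT-Surgery arrays 2 to 5. Over all probes the share above background was 26.65% to 38.59%, 23.16% to 32.9%, 25.74% to 37.24% and 22.47% to 25.65% in the same order. FLT-Sham replicates 4, 6 and 9 accounted for the high counts, and FLT-Sham 8 had 4. Only Cacna1s was above background on all 15 arrays. Sln was so on 13, Trdn on 12, Ryr1 on 11, Casq1 on 4, Casq2, Cacng1 and Jph2 on 3 each, Jph1 on 1 and Pln on 0. The reference channel was above background on no array for Casq1, Sln and Jph1, so a ratio of these genes has a denominator near the floor. No member spot was saturated.

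**Figure D2:**
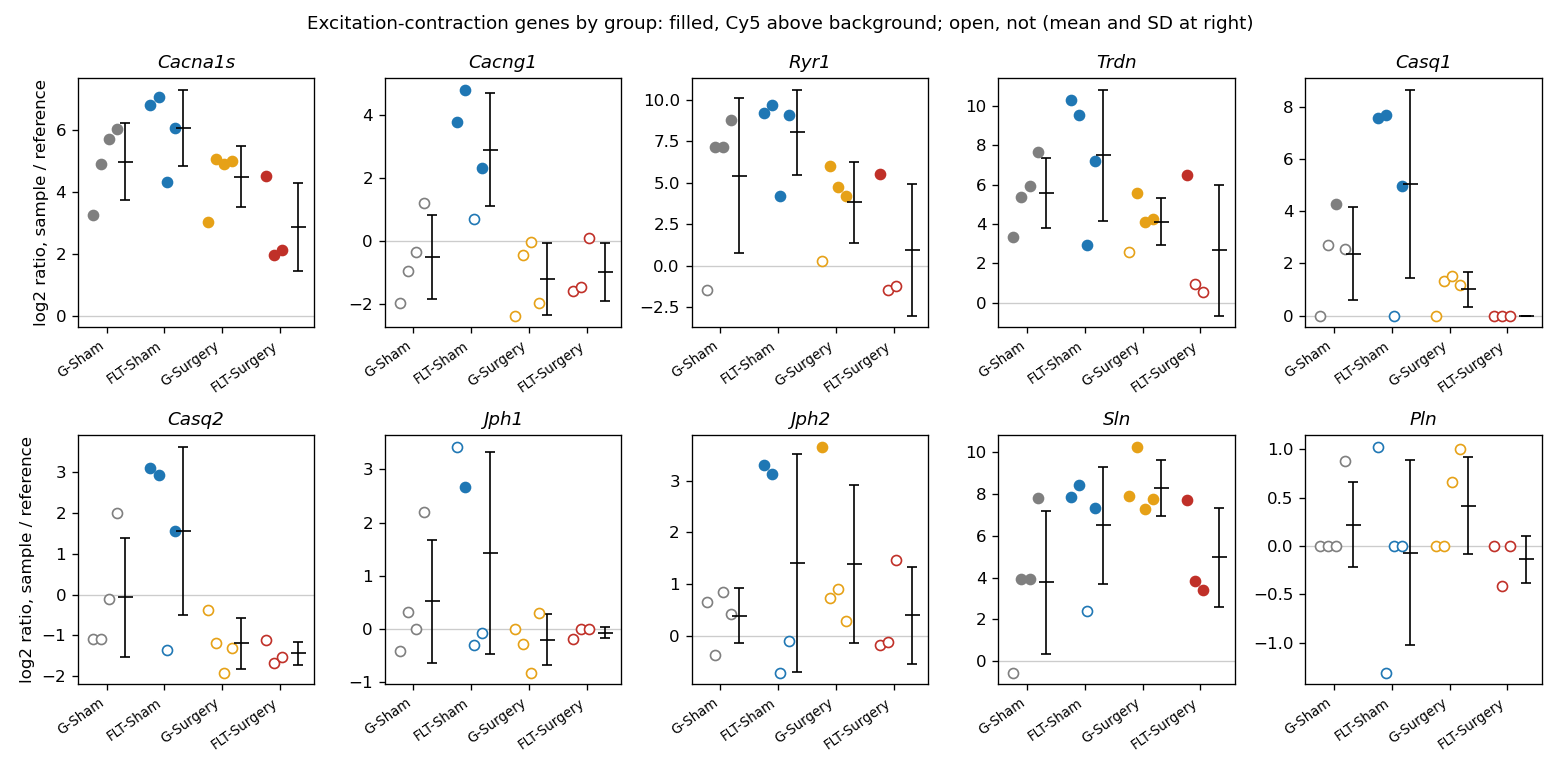
Log2 ratio of sample to reference (vertical axis) for each gene by group, 1 point per array in order of replicate number, filled where Cy5 was above background and open where it was not, with the mean and SD at the right of each group. Ryr1 sits at -1.49 in G-Sham 1 and at -1.48 and -1.23 in FLT-Surgery 3 and 5, with G-Surgery 1 (0.30) the next lowest, while Sln is between 7.28 and 10.25 in all 4 G-Surgery arrays.

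Cacna1s, the pore-forming subunit of the voltage sensor, gave the firmest measurement. Its Cy5 signal was 12830, 29260, 53490 and 55310 in G-Sham replicates 1, 3, 4 and 5, and 187200, 240500, 22630 and 109500 in FLT-Sham 4, 6, 8 and 9. It was 9650, 45880, 32770 and 35660 in G-Surgery 1, 3, 4 and 5, and 24350, 4295 and 5501 in FLT-Surgery 1, 3 and 5. All FLT-Sham arrays but replicate 8 lay above every array of the other groups, and FLT-Surgery 3 and 5 lay below every other array. As log2 ratios the means were 4.98 ± 1.25 (SD, n = 4) in G-Sham, 6.07 ± 1.24 (SD, n = 4) in FLT-Sham, 4.49 ± 0.98 (SD, n = 4) in G-Surgery and 2.87 ± 1.42 (SD, n = 3) in FLT-Surgery. The dimmer Cacna1s probe was above background on 12 arrays and had means of 1.60 ± 2.42, 4.05 ± 2.24, 0.69 ± 1.14 and -0.16 ± 1.33 (SD) in the same order. Both probes put FLT-Sham highest and FLT-Surgery lowest.

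Cacng1, the gamma subunit that tunes the voltage sensor, was above background only in FLT-Sham 4, 6 and 9. Its log2 ratio was 3.79, 4.81, 0.69 and 2.32 in FLT-Sham 4, 6, 8 and 9, against -1.96, -0.96, -0.33 and 1.20 in G-Sham 1, 3, 4 and 5. It was -2.37, -0.43, -0.04 and -1.96 in G-Surgery 1, 3, 4 and 5, and -1.57, -1.47 and 0.10 in FLT-Surgery 1, 3 and 5. FLT-Sham overlapped G-Sham through its replicate 8 and overlapped neither Surgery group. Its reference signal was above background on all 15 arrays.

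Ryr1 encodes the calcium release channel. Its Cy5 signal was 33.5, 3498, 6870 and 7577 in G-Sham 1, 3, 4 and 5 and 36670, 54650, 751.5 and 19770 in FLT-Sham 4, 6, 8 and 9. In G-Surgery 1, 3, 4 and 5 it was 73.9, 2446, 1074 and 891.9, and in FLT-Surgery 1, 3 and 5 it was 1403, 27.2 and 28.4. The channel was thus at background on 4 arrays: G-Sham 1, G-Surgery 1, FLT-Surgery 3 and FLT-Surgery 5. These are also the 4 arrays with the lowest mean of the fast muscle list. The mean log2 ratio was 5.42 ± 4.67 (SD, n = 4) in G-Sham, 8.04 ± 2.57 (SD, n = 4) in FLT-Sham, 3.81 ± 2.46 (SD, n = 4) in G-Surgery and 0.94 ± 3.97 (SD, n = 3) in FLT-Surgery.

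Triadin links the release channel to calsequestrin. The brighter Trdn probe had log2 ratios of 3.33, 5.39, 5.93 and 7.64 in G-Sham 1, 3, 4 and 5 and of 10.30, 9.53, 2.91 and 7.19 in FLT-Sham 4, 6, 8 and 9. Its values were 2.59, 5.56, 4.09 and 4.25 in G-Surgery 1, 3, 4 and 5, and 6.51, 0.95 and 0.56 in FLT-Surgery 1, 3 and 5. FLT-Surgery 1 therefore lay above all G-Surgery arrays, and its 2 companions below them. The dimmer Trdn probe was above background on 1 array only, FLT-Sham 6 (log2 ratio 2.61). Its spot on FLT-Surgery 5 read 479700 in Cy5 but was flagged as an outlier by the scanner software and is left out.

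The calsequestrins store calcium inside the reticulum. Casq1 was above background in FLT-Sham 4, 6 and 9 (Cy5 1386, 3384 and 511.4) and in G-Sham 4 (264.2). In FLT-Sham 8 its signal was 21.6, and over the 7 Surgery arrays it lay between 17.1 and 46.2. Its ratio was written as 0 in all 3 FLT-Surgery arrays. Casq2 was above background in the same 3 FLT-Sham arrays (Cy5 273.1, 390 and 182.5) and in no other, with signals of 24.7 to 82.3 elsewhere. For both, the FLT-Sham group split into 3 arrays with signal and replicate 8 without.

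The junctophilins, which bridge the tubule and reticulum membranes, were mostly at background. Jph1 had a Cy5 signal of 195.8 in FLT-Sham 6, the single array where it stood out, and 16.8 to 104.6 elsewhere. Jph2, the main cardiac form, was above background in FLT-Sham 4 and 6 (252.7 and 134.5) and in G-Surgery 1 (2529). On that G-Surgery array the reference signal of the same spot was also the highest of the series, at 200.3 against 15.4 to 48.5 on the other 14. Pln, the cardiac and slow muscle pump inhibitor, had Cy5 signals of 14.4 to 35.7 and was above background nowhere.

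Sln, the skeletal and atrial pump inhibitor, followed another order. Its Cy5 signal was 20.6, 154.9, 184.5 and 1733 in G-Sham 1, 3, 4 and 5 and 1344, 1823, 107.5 and 1036 in FLT-Sham 4, 6, 8 and 9. In G-Surgery 1, 3, 4 and 5 it was 1884, 12620, 985.2 and 2824, and in FLT-Surgery 1, 3 and 5 it was 1357, 142.3 and 149.2. G-Surgery, not FLT-Sham, had the highest mean log2 ratio, 8.29 ± 1.33 (SD, n = 4), followed by FLT-Sham at 6.49 ± 2.78 (SD, n = 4), FLT-Surgery at 4.97 ± 2.38 (SD, n = 3) and G-Sham at 3.77 ± 3.41 (SD, n = 4). The groups overlapped in every one of the 4 comparisons.

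Each comparison was then fitted with limma over every probe that stood above background in the sample channel of 3 or more of its arrays. The cut-off is that of the study's methods, a fold change of at least 2 at an unadjusted p of at most 0.01, and p-values adjusted by Benjamini-Hochberg over all probes tested are given beside it. Which of the 10 genes were tested thus depends on where they could be seen: 7 in each comparison that includes FLT-Sham and 4 in the other two. A gene that passed only through FLT-Sham had little room to be other than higher there, so the counts over tested genes are descriptions. Each group enters 2 of the 4 comparisons, which are therefore not independent of each other.

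**Figure D3:**
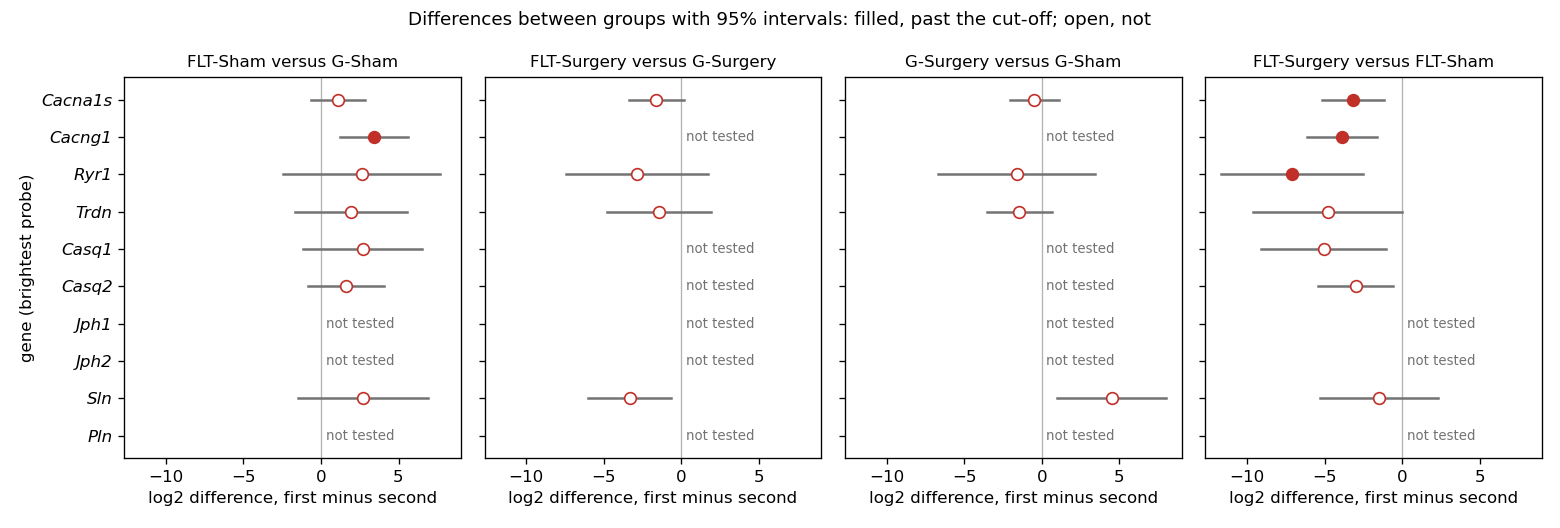
Log2 difference between groups (horizontal axis, first minus second group) with its 95% interval from limma for each gene at its brightest probe, in 4 panels for the 4 comparisons, filled where past the cut-off. Intervals are wide, Ryr1 running from -11.7 to -2.50 in FLT-Surgery versus FLT-Sham, and genes seen on too few arrays are marked as not tested.

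In unoperated femurs the question was what spaceflight changed. Here 1 of the 7 genes tested passed the cut-off, in the direction of higher in FLT-Sham (Cacng1), where 1.83% of the 10342 genes tested passed in that direction. All 7 had higher means in FLT-Sham, with a median log2 difference of 2.62 against 0.38 over all genes tested, of which 68.2% were higher. Lists of other tissues were higher here too, with medians of 3.05 for adipocyte genes (4 of 4 higher), 2.48 for erythroid genes (4 of 4) and 1.80 for neutrophil and marrow genes (5 of 7). The fast muscle list had a median of 0.38 (11 of 16 higher), near that of all genes. Slow or cardiac muscle genes had 1.19 (8 of 8) and smooth muscle genes 0.17 (4 of 5). The part of these lists in the differences was not tested. Cacng1 differed by 3.41 (SE 0.96, 95% interval 1.22 to 5.60, adjusted p = 0.461). G-Sham was at background on every array. The mean Cy5 signal of Cacng1 in FLT-Sham, where 3 of 4 arrays measured it, was 7.34-fold above the background limit of G-Sham. That call was lost with normexp background correction and loess (0.98, adjusted p = 0.435), without the filter on dim probes (adjusted p = 0.585), with slide as a block and without G-Sham 1 (2.93), G-Sham 3 (3.26) or G-Sham 4 (3.47), and the gene could no longer be tested without any one of FLT-Sham 4, 6 or 9. The difference was 4.75 within slide 1 and 2.98 within slide 2.

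The others did not pass. Casq1 differed by 2.68 (95% interval -1.16 to 6.52), Ryr1 by 2.62 (-2.45 to 7.70), Sln by 2.72 (-1.48 to 6.92), Trdn by 1.91 (-1.70 to 5.52), Casq2 by 1.63 (-0.83 to 4.09) and Cacna1s by 1.09 (-0.67 to 2.85). Every one of these intervals includes 0, and the adjusted p-values ran from 0.536 (Casq1) to 0.576 (Ryr1). Single arrays moved these values: without G-Sham 1 the Ryr1 difference was 0.32, and without FLT-Sham 8 it was 3.90. Without FLT-Sham 8 the difference of Casq1 was 4.37, past the cut-off, and that of Sln 4.09. That fit called 9.20% of all probes tested as higher, against 1.78% with the array in. The dimmer Cacna1s probe differed by 2.45 (adjusted p = 0.525). In the Cy5 channel the FLT-Sham mean of Jph2 was 1.46-fold and that of Jph1 1.21-fold above the background limit of G-Sham. Only 2 and 1 of the 4 arrays were above background, so neither is a strict lower bound, and neither gene was tested.

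In the defect callus, spaceflight was compared with ground over 4 testable genes. All 4 genes tested had lower means in FLT-Surgery than in G-Surgery and 0 of 4 passed the cut-off, where 2.63% of the 8516 genes tested passed as lower and 0.634% as higher. The median log2 difference was -2.25, against -0.355 over all genes tested, of which 29.9% were higher. Sln was the nearest to the cut-off, with a difference of -3.33 (95% interval -6.00 to -0.65, adjusted p = 0.28). It was -4.04 within slide 1 and -2.55 within slide 2 (1 array against 1), and with slide as a block it was -3.60 (adjusted p = 0.0743), past the cut-off. The fit with that block called 6.56% of all probes tested as lower, against 2.09% without it. Cacna1s differed by -1.62 (-3.39 to 0.15, adjusted p = 0.326), Ryr1 by -2.87 (-7.45 to 1.71, adjusted p = 0.463) and Trdn by -1.45 (-4.82 to 1.91, adjusted p = 0.614). The sign of Trdn turned within slide 2 (0.95), with normexp and loess (0.064) and relative to the fast muscle list described below (0.52), and that of Cacna1s turned relative to that list (0.35).

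FLT-Surgery 1 decided these values. Without it all 4 genes passed, with differences of -4.69 for Sln (adjusted p = 0.025), -5.16 for Ryr1 (adjusted p = 0.074), -2.44 for Cacna1s (adjusted p = 0.0576) and -3.37 for Trdn (adjusted p = 0.0414), and the median was -4.03. That fit called 11.4% of all 16140 probes tested as lower, against 2.09% with the array in. The mean of the fast muscle list was 6.81 on that array and 3.86 and 3.99 on its companions. The other 6 genes were not tested here. For Jph2 the G-Surgery mean was 2.75-fold above the background limit of FLT-Surgery, on the strength of G-Surgery 1 alone. The other 5 were at background on every array of both groups.

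On the ground, the comparison of surgery with Sham gave its largest difference among these genes for Sln. Of 4 genes tested 0 passed the cut-off, where 2.70% of the 9096 genes tested passed as higher and 0.462% as lower. Sln was 4.52 higher in G-Surgery than in G-Sham (SE 1.54, 95% interval 1.0 to 8.03, adjusted p = 0.361), by 3.69 within slide 1 and 6.64 within slide 2. All 4 G-Surgery arrays were above G-Sham 1, 3 and 4, and G-Sham 5 (7.78) fell among them. Without G-Sham 5 the difference was 5.85 (adjusted p = 0.264) and passed the cut-off. Cacna1s differed by -0.48 (-2.06 to 1.10, adjusted p = 0.799), Ryr1 by -1.61 (-6.66 to 3.44, adjusted p = 0.79) and Trdn by -1.45 (-3.55 to 0.65, adjusted p = 0.574). The Ryr1 difference was -4.11 within slide 1 and 2.36 within slide 2. Those of Cacna1s (-0.59 and 0.41) and Trdn (-1.74 and 0.07) also turned between the slides. Without G-Surgery 1 the Cacna1s difference turned to 0.01.

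In spaceflight, surgery was set against Sham with 7 of the 10 genes testable, 3 of them (Casq1, Casq2 and Cacng1) only through their signal in FLT-Sham. All 7 genes tested had lower means in FLT-Surgery than in FLT-Sham and 3 passed the cut-off, Cacna1s, Cacng1 and Ryr1, where 7.96% of the 10130 genes tested passed as lower and 0.286% as higher. The median log2 difference was -3.88, against -0.556 over all genes tested, of which 33.5% were higher. Cacna1s differed by -3.19 (SE 0.86, 95% interval -5.19 to -1.20, adjusted p = 0.144), and its dimmer probe, also past the cut-off, by -4.21 (adjusted p = 0.149). Ryr1 differed by -7.11 (SE 1.99, 95% interval -11.7 to -2.50, adjusted p = 0.145). Cacng1 differed by -3.88 (SE 0.98, 95% interval -6.14 to -1.62, adjusted p = 0.14) and was the one of the 3 whose groups did not overlap. Over all genes tested, 13.2% did not overlap in that direction.

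Cacng1, Casq1 and Casq2 were at background on every FLT-Surgery array. Their mean Cy5 signals in FLT-Sham, each measured on 3 of 4 arrays, were 8.17-fold, 10.3-fold and 3.41-fold above the background limit of FLT-Surgery. Casq1 (log2 difference -5.06, adjusted p = 0.162), Casq2 (-3.00, adjusted p = 0.162), Trdn (-4.81, adjusted p = 0.204) and Sln (-1.53, adjusted p = 0.536) did not pass the cut-off. FLT-Sham 8 weighed heavily: without it 6 of the 7 passed, Sln excepted, with adjusted p-values of 0.00219 for Casq1 to 0.0296 for Trdn. Over all 18761 probes tested, 21.2% were called lower in that fit, against 6.21% with the array in. With slide as a block Cacng1 alone passed (-4.31). Without any one of FLT-Sham 4, 6 or 9, Cacng1, Casq1 and Casq2 could no longer be tested and 0 of the other 4 passed. Without FLT-Surgery 3, 0 of 7 passed, and without FLT-Surgery 5 only Cacng1 did (-4.42). Within slides the differences were -4.76 and -1.31 for Cacna1s, -10.54 and -2.14 for Ryr1, and -4.47 and -4.17 for Cacng1, on slides 1 and 2. They were -4.26 and 1.66 for Sln and -9.54 and -0.04 for Trdn, while Casq1 and Casq2 stayed below 0 on both.

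Whether spaceflight acted differently after surgery was tested as an interaction over all 15 arrays. The spaceflight difference in Surgery minus that in Sham was below 0 for all 8 genes tested, and 0 of 8 passed the cut-off, where 6.60% of the 11129 genes tested passed as lower and 0.225% as higher. The median was -3.28, against -0.722 over all genes tested, of which 29.9% were above 0. Casq2 and Cacng1 were above background in FLT-Sham only, and Casq1 and Jph2 mostly there. Signal seen only in FLT-Sham puts this value below 0. For these genes its sign thus largely follows from the filter and is a description. The nearest to the cut-off were Sln (-6.04, SE 2.44, adjusted p = 0.216), Cacng1 (-3.19, SE 1.31, adjusted p = 0.22) and Cacna1s (-2.71, SE 1.17, adjusted p = 0.232), whose 95% intervals exclude 0. Ryr1, Trdn, Casq1, Casq2 and Jph2 had interaction values of -5.49, -3.36, -3.69, -1.87 and -2.02. Without FLT-Sham 8, Sln, Casq1 and Cacng1 passed (-7.42, -5.37 and -3.93), without G-Sham 5 Sln did (-7.38), and without FLT-Surgery 1 Cacna1s did (-3.53). The share of all probes called lower was 13.7%, 6.21% and 9.98% in these fits, against 4.97% over all arrays.

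The wider calcium handling machinery was read from a list of 30 other genes, of which 28 have a probe. In FLT-Sham versus G-Sham 0 of 22 tested passed the cut-off (19 higher, median 0.90), and in G-Surgery versus G-Sham 0 of 22 (10 higher, median -0.11). In FLT-Surgery versus G-Surgery 2 of 19 passed, both lower (median -1.30): Cav3, the muscle caveolin of the tubule (-4.47, adjusted p = 0.267), and Stim1, the store calcium sensor (-2.12, adjusted p = 0.28). In FLT-Surgery versus FLT-Sham 7 of 21 passed, all lower (median -1.98). They were Cav3 (-6.77), Srl (-5.82), Atp2a2, the slow and cardiac calcium pump (-5.67), Cacna2d1, the alpha2delta subunit of the voltage sensor (-5.48), Tmem38a, a counter-ion channel (-4.50), Stim1 (-2.66) and Bin1, which shapes the tubule (-1.98). In the interaction 4 of 23 passed, all lower (median -2.03): Cav3 (-6.42), Cacna1c, the cardiac and smooth muscle voltage sensor (-4.19), Stim1 (-2.99) and S100a1 (-1.56). The brightest genes of the list passed in no comparison. In FLT-Surgery versus FLT-Sham the first 4 had differences of 0.60 (Fkbp1a, which binds the release channel), -1.09 (Pvalb, a calcium buffer of fast fibres), -2.53 (Jsrp1) and -1.05 (Hrc). The fast skeletal pump Atp2a1, which Sln inhibits and which was picked after its values were seen, differed by 0.77, -1.66, 0.49 and -1.93 in the 4 comparisons in the order given above and passed in none.

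The arrays low in Cacna1s, Ryr1 and Trdn were low in the mean of the fast muscle list too. Over the 15 arrays the log2 ratio of Cacna1s had a Pearson r of 0.968 with the mean of the 16 fast muscle genes, Ryr1 0.951, Trdn 0.895, Casq1 0.738, Casq2 0.647, Cacng1 0.57, Sln 0.499, Jph1 0.491, Pln 0.18 and Jph2 0.065. Among the 4 genes seen on most arrays, Cacna1s, Ryr1 and Trdn had pairwise r of 0.904 to 0.959, and Sln had 0.527 to 0.561 with them. These values share their arrays, reference and normalization and are a description. The mean of the slow or cardiac muscle list (8 genes) was -0.51 to 2.02 in FLT-Surgery, below the other groups, where it was 2.77 to 7.13. In FLT-Surgery versus G-Surgery 1 of 15 fast and 5 of 6 slow or cardiac muscle genes tested passed as lower (medians -1.76 and -4.95), and 1 of 3 cartilage genes did (median -3.50). In FLT-Surgery versus FLT-Sham 5 of 16 fast and 7 of 8 slow or cardiac muscle genes passed as lower, and so did 3 of 4 adipocyte genes tested, 4 of 4 erythroid genes and 3 of 7 neutrophil and marrow genes. Fewer passed as lower in the other lists: 1 of 5 osteoblast and osteocyte, 0 of 5 smooth muscle, 0 of 3 cartilage and 0 of 2 cardiac genes. Over all genes tested there, 7.96% passed as lower. The mean of the erythroid list was 0.72 to 3.02 in FLT-Surgery and 3.83 to 6.48 in FLT-Sham, and that of the adipocyte list -0.80 to 2.45 and 3.63 to 5.66. The part of these cell types and of muscle content in the differences was not tested. Of 4 genes of cardiac muscle only, 2 were above background on no array.

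**Figure D4:**
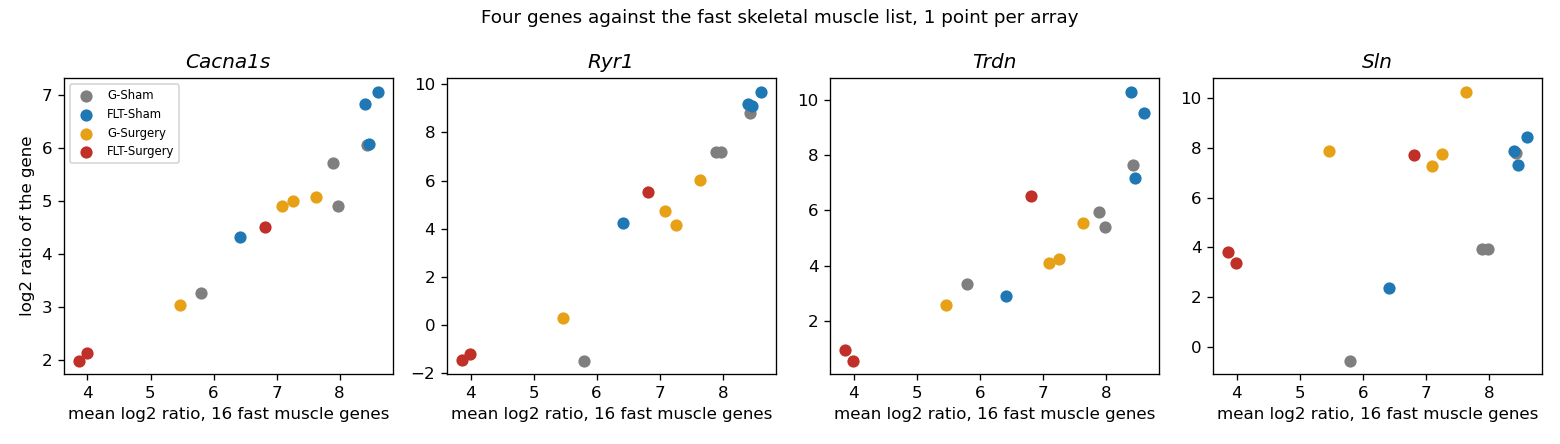
Log2 ratio of Cacna1s, Ryr1, Trdn and Sln (vertical axes) against the mean log2 ratio of 16 fast skeletal muscle genes on the same array (horizontal axes), 1 point per array, coloured by group. Points of Cacna1s and Ryr1 follow the list (r = 0.968 and 0.951), while Sln (r = 0.499) is at 7.88 in G-Surgery 1, where the list is at 5.47.

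Set against the muscle list on the same array, Sln separated the ground groups. Its log2 ratio minus the mean of the list was -6.35, -4.03, -3.97 and -0.66 in G-Sham 1, 3, 4 and 5 and 2.41, 2.62, 0.19 and 0.50 in G-Surgery 1, 3, 4 and 5. It was -0.54, -0.18, -4.04 and -1.16 in FLT-Sham 4, 6, 8 and 9 and 0.89, -0.05 and -0.60 in FLT-Surgery 1, 3 and 5. G-Surgery lay 5.18 above G-Sham with no overlap (two-sided exact permutation test, p = 0.0286, the smallest that 4 against 4 allows). FLT-Surgery lay 1.35 below G-Surgery (exact permutation test, p = 0.229) and 1.56 above FLT-Sham (exact permutation test, p = 0.229). This scale was chosen after the values were seen, and over its 40 gene and comparison pairs the adjusted p was 0.502 or more. On the same scale the 3 genes past the cut-off in FLT-Surgery versus FLT-Sham differed by -0.11 (Cacna1s, exact permutation test, p = 0.657), -0.79 (Cacng1, p = 0.629) and -4.02 (Ryr1, p = 0.0857), and none passed. Cacng1 was at background on every FLT-Surgery array, and Ryr1 on FLT-Surgery 3 and 5. Their values there are a floor minus a list that was itself lower, which shrinks the difference. For them this scale cannot show whether the difference follows the list. Cacng1 differed by 2.96 between FLT-Sham and G-Sham (exact permutation test, p = 0.0286), with G-Sham at background on every array.

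The genes whose pattern was most like the mean of Cacna1s, Ryr1, Trdn and Sln were sought among 8046 other genes seen on at least 8 arrays. The 10 with the highest Pearson r over the 15 arrays were Uchl5 (0.986), Lrrfip1 (0.986), Art1 (0.985), D5Ertd579e (0.984), Atp6v1g1 (0.983), Mrpl33 (0.983), Nfatc1 (0.983), Pank4 (0.982), Psma7 (0.981) and Sem1 (0.979), against a median of 0.337 over all candidates. None of them is on the fast muscle list, whose highest member was Ckm (0.963) at rank 69. Of that list, Myh1 (0.299), Tcap (0.266), Tnnc2 (0.242) and Myh4 (-0.465) lay below the median of all candidates.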

How the data were processed

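Total RNA of 15 femoral samples was hybridised to 2-colour Agilent arrays. The authors deposited the Agilent Feature Extraction 12.0 output (tool per the submitters' processing notes) with the processed intensity of Cy5 and Cy3 (background subtracted, dyes normalized) and their log10 ratio. The deposited series table holds the same log10 ratio to within 0.005. Ratios were converted to log2 with no further loess, outlier spots were dropped, and spots of a probe averaged. A probe entered the limma 3.58.1 fit (R 4.3.3) if its Cy5 stood well above background in 3 or more arrays of the groups compared, and p-values were adjusted over all such probes. Folds over a background limit use the deposited Cy5, scaled between arrays by limma's Aquantile. The limit of an array is its lowest Cy5 value that counts as above background, or the measured value where that was higher. Arrays at background in the brighter group enter as measured, so these folds are not strict lower bounds. Dyes were not swapped, so dye bias can enter them. Probes were named through RefSeq accessions, and 2 of the 30 pathway genes (Ryr3 and Mrln) found no probe. Each sample is 1 mouse, and the number of arrays limits precision. The fit was tested on simulated data. The 10 genes, their lists and the settings were chosen with earlier results of these data known. Named genes were all members, the list genes past the cut-off and the 5 brightest (1 of which is not reported here), and the 10 most alike. The normexp alternative uses median spot and background intensity.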

Additional observations from a re-analysis of the deposited data

Results flagged for a closer look

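Of 23 gene and group combinations with at least 1 array above background and 4 values, 3 held an array far from its companions, where chance gives about 1 in 20. The log2 ratio of Ryr1 was -1.49 in G-Sham 1, with the other 3 arrays between 7.17 and 8.81. In FLT-Sham 8 it was 4.21, with the others between 9.08 and 9.69. For Cacna1s it was 3.03 in G-Surgery 1, with the others between 4.89 and 5.06. These arrays also had the lowest mean of the fast muscle list in their groups (5.80, 6.42 and 5.47), whose part was not tested.

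The spaceflight difference after surgery was set apart from that in unoperated femurs by the interaction for Sln (-6.04, adjusted p = 0.216), Cacna1s (-2.71, adjusted p = 0.232) and Cacng1 (-3.19, adjusted p = 0.22) by limma at an unadjusted p of 0.05, and for none after adjustment. Of all 21816 probes tested in that fit, 4252 reached the same unadjusted p. Cacng1 was above background in FLT-Sham only, which by itself puts its value below 0.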

How the results depend on the processing

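Member counts past the cut-off rest on few arrays. For FLT-Sham versus G-Sham the count was 1, and 0 with normexp and loess, without the filter on dim probes and with slide as a block, and it ran from 0 to 2 leaving out 1 array. For FLT-Surgery versus FLT-Sham it was 3, 1 with normexp and loess or with slide as a block, 0 with no filter, and 0 to 6 leaving out 1 array. For FLT-Surgery versus G-Surgery it was 0, 1 with slide as a block, and 0 to 4 leaving out 1 array. It was 0 to 1 for G-Surgery versus G-Sham and 0 to 3 for the interaction in the same way. By gene, in FLT-Surgery versus FLT-Sham, Cacna1s and Cacng1 each passed in 8 of 10 other settings with every array in, and Ryr1 in 5 of 10. Casq1 passed in 1 of 9 and Casq2 in 1 of 10.

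The median log2 difference over members moved by more than the pooled spread between arrays (1.45) with normexp and loess, to 1.17, -1.64 and -1.82 for FLT-Sham versus G-Sham, FLT-Surgery versus FLT-Sham and the interaction. Leaving out 1 array it ran from 1.28 to 3.90, -4.62 to -3.41 and -4.41 to -2.66 there, from -4.03 to -1.42 for FLT-Surgery versus G-Surgery and from -1.63 to -0.22 for G-Surgery versus G-Sham. Signs turned for Trdn in FLT-Surgery versus G-Surgery with normexp and loess (0.064) and for Cacna1s in G-Surgery versus G-Sham without G-Surgery 1 (0.0072, and -1.06 without G-Sham 1 at the other end), and no other member turned under a planned setting. Relative to the fast muscle list, signs turned for Cacna1s (0.35) and Trdn (0.52) in FLT-Surgery versus G-Surgery, Cacna1s in G-Surgery versus G-Sham (0.18), and Casq2 (0.084) and Sln (1.56) in FLT-Surgery versus FLT-Sham. Casq2 was at background on every FLT-Surgery array, and Trdn on FLT-Surgery 3 and 5. Their turns set a floor against a list that was lower there, and are not measured reversals. The cause was not tested.

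The scaling sets the balance of calls over all probes: of those past the cut-off, 89.6% were higher in FLT-Sham than in G-Sham, 65.3% after a second loess, 72.8% after median centring and 30.3% with normexp and loess. In the same order these shares were 33.3%, 94.7%, 83.8% and 82.7% for FLT-Surgery versus G-Surgery, 80.1%, 56.8%, 52.8% and 40.4% for G-Surgery versus G-Sham, and 6.37%, 51.8%, 26.4% and 33.1% for FLT-Surgery versus FLT-Sham. The second loess moved the median of all probes tested from -0.20 to 0.29 in FLT-Surgery versus G-Surgery and from -0.28 to 0.35 in FLT-Surgery versus FLT-Sham. With a replicate block (arrays paired by number), the members past the cut-off stayed at 0 in FLT-Surgery versus G-Surgery and 0 in G-Surgery versus G-Sham, with medians of -2.02 and -0.97. Deviations of arrays with the same number had correlations of -0.42 to 0.34, so the numbers do not pair the mice. Genes below background have only a bound at this signal.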
